A study of Mus musculus with 10 samples.

Results

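The neuronal calcium sensor genes Vsnl1, Hpcal1, Hpcal4, Hpca, Ncald and Ncs1 were followed in atrial and ventricular cardiomyocytes of the mouse. These 6 genes were taken by name from the 25239 gene symbols of the tables. The family was chosen by the measured chamber difference of Vsnl1, which is among the strongest atrial genes of these same libraries, so that difference is given as a description with no test. The other 5 genes came in by family membership.

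Neuronal calcium sensors are small cytosolic proteins that bind calcium through EF-hand loops. Most carry a myristoyl group on the glycine that follows the start methionine, and in several of them calcium binding exposes this lipid and brings the protein to membranes, the calcium-myristoyl switch. The family is best known from brain and retina, where its members regulate receptors, channels and lipid kinases, but Ncs1 is also expressed in heart muscle. Their relative Kcnip2 (KChIP2) is an auxiliary subunit of the Kv4 potassium channels that carry the fast transient outward current of cardiomyocytes.

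RNA was sequenced from atrial cardiomyocytes (aCM) and ventricular cardiomyocytes (vCM) of WT mice, with 5 libraries in each group. The labels give no age, sex, strain or cell isolation method and do not state that the libraries are from different animals, and the p-values therefore rest on a spread between libraries that may partly be technical. Values are the authors' normalized reads, that is, reads per gene divided by a size factor for each library. Differences are aCM minus vCM on the scale of log2(normalized reads + 1), and a gene is called where limma's adjusted p is under 0.05.

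The libraries held between 1790402 and 12842635 recovered reads. Replicates 1 and 2 of both chambers had 1790402 to 4445287 reads and the ribosomal precursor Rn45s took 0.215% to 0.480% of them, whereas replicates 3 to 5 had 11163805 to 12842635 reads with 23.1% to 29.8% from Rn45s. The labels do not name this division. Replicate 1 had reads for the most genes in each chamber, 21576 in aCM and 19232 in vCM, against 15950 to 16618 in the other libraries. Low values in replicate 1 carry this limit. Where a gene had no read, up to 3 reads could still be allowed by counting error alone, equal to between 1.70 and 10.4 normalized reads across libraries. As a check of the labels, all 7 atrial markers were called higher in aCM and 4 of 5 ventricular markers lower in aCM (Myl2 averaged 75.2 ± 42.3 in aCM and 104410 ± 21750 normalized reads in vCM; SD, n = 5 each). Markers of other cells of the heart were present in both groups. Summed over 7 genes each, epicardial markers ranged from 2652 to 6306 normalized reads in aCM and from 675 to 1738 in vCM, endothelial markers from 1182 to 3934 in aCM and from 273 to 1422 in vCM, and fibroblast markers from 13845 to 32936 in aCM and from 5774 to 49629 in vCM. Smooth muscle and pericyte markers, also 7 genes, were lower in aCM without overlap, at 1689.3 to 6544.5 against 9002.5 to 15453 in vCM. In bulk RNA, fewer cells of a type and less RNA per cell cannot be told apart.

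The relatedness of the 6 genes can be read in their coding sequences, which also bears on how reads are shared between them. The first 60 bases of each coding sequence are given from GENCODE release M21 of GRCm38, with the second codon, which encodes the glycine that is the myristoylation site, in capitals:
Vsnl1: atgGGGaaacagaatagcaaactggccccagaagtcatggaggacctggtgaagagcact
Hpcal4: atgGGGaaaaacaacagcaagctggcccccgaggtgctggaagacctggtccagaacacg
Hpcal1: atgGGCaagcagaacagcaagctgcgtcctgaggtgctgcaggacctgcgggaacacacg
Hpca: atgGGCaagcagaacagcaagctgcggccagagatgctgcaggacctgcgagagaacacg
Ncald: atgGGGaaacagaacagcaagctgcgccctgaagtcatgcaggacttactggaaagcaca
Ncs1: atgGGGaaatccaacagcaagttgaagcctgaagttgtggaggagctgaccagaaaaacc

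All 6 begin with a methionine codon followed by a glycine codon. The coding sequences, stop codon included, are 573 to 582 bases long and span 3 coding exons, except in Ncs1, which has 7. Over aligned coding bases, Vsnl1 is most like Hpcal4 (82.1% identical), and Hpcal1 is most like Hpca (86.1%). Hpcal1 and Hpca are 80.2% and 80.0% identical to Ncald. Ncs1 stands farthest off, at 63.8% to 66.1% identity to the others. The longest run of identical bases between any pair is 46, between Hpca and Ncald, and the longest that Vsnl1 shares with another member is 28, with Hpcal1. Reads that lie wholly within such a run could not be assigned to a single gene from their bases.

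Vsnl1, which encodes visinin-like protein 1, had the largest chamber difference of the family and was close to absent from ventricular libraries. The gene lies on the minus strand at chr12:11325242-11436613 (GRCm38, ENSMUSG00000054459.8), with 1956 bases of exon. It had 133.8, 76.3, 212.5, 230.0 and 249.7 normalized reads in aCM replicates 1 to 5, against 6.92, 2.44, 1.24, 0.668 and 0 in vCM replicates 1 to 5. Every aCM library was above every vCM library, and within aCM the libraries of replicates 3 to 5 were the higher ones. The vCM values rest on 2, 1, 2, 1 and 0 reads, 6 in all, so a very low ventricular level was seen whose size is loosely known. The group means were 180.4 ± 73.0 normalized reads in aCM and 2.25 ± 2.76 in vCM (SD, n = 5 each), an 80.1-fold ratio and a log2 difference of 6.05. In the order of all 12422 tested genes by this difference, Vsnl1 stood at place 8 from the atrial end.

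Because the vCM counts are so small, the size of the Vsnl1 ratio is loosely bounded. Pooled over libraries there were 1302 reads in aCM and 6 in vCM, a depth-adjusted ratio of 183.2 with a 95% exact interval of 83.9 to 500.1 from counting error only. In replicates 1 and 2, 150 aCM reads stood against 3 vCM reads, a ratio of 24.6 (interval 8.27 to 121). In replicates 3 to 5, 1152 aCM reads stood against 3 vCM reads, a ratio of 362 (interval 124 to 1760). The log2 difference came to 4.29 within replicates 1 and 2, and to 7.22 within replicates 3 to 5.

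Since Vsnl1 is abundant in neurons, the neuron marker list was read beside it. Summed over its 18 genes, the list ranged from 136.8 to 336.5 normalized reads (median 199.3) in aCM and from 74.8 to 169.5 (median 82.9) in vCM, so the ranges overlapped, and the aCM library was the higher in 5 of 5 replicate pairs. The 5 list genes that passed the filter, a mean of 10 normalized reads over all libraries, had positive log2 differences (median 1.33). Of these, Elavl4, Dbh, Nefl and Syp averaged under 10 in vCM and passed only through aCM. Their direction was therefore largely set by the filter, and the median carries this limit. Against 8.12% of all tested genes called higher in aCM, 2 were called, both higher in aCM. These were Elavl4, a neuronal RNA-binding protein (33.0 ± 6.96 in aCM and 5.33 ± 2.19 in vCM; log2 difference 2.48 ± 0.32, SE; limma adjusted p = 0.000456), and Dbh, the enzyme that makes noradrenaline (27.2 ± 9.22 in aCM and 9.78 ± 2.34 in vCM; 1.33 ± 0.33; limma adjusted p = 0.0206). The 3 that passed the filter without a call were Nefl, a neurofilament subunit (18.8 ± 16.9 in aCM and 4.38 ± 3.63 in vCM), the ubiquitin hydrolase Uchl1 (66.9 ± 9.38 in aCM and 50.03 ± 21.04 in vCM) and the vesicle protein Syp (13.1 ± 7.95 in aCM and 8.05 ± 3.85 in vCM). The other 13 were under the filter. Of these, Th, the first enzyme of catecholamine synthesis, averaged 1.26 in aCM and 0.816 in vCM, Snap25, a synaptic fusion protein, averaged 4.77 in aCM and 1.89 in vCM, and Slc18a3, the acetylcholine carrier of vesicles, was at 0 in all 5 aCM libraries and in 4 of 5 vCM libraries. The 6 Schwann cell markers, genes of the cells that wrap nerve fibres, summed to between 250.5 and 370.9 in aCM and between 86.1 and 97.6 in vCM, with no overlap. Of the 3 tested, 1 was called, the myelin gene Mbp (256.3 ± 61.8 in aCM and 33.8 ± 17.3 in vCM; 3.04 ± 0.39; limma adjusted p = 0.000443). On average Mbp alone made up most of the Schwann cell sum in aCM. The median log2 difference of the 3 tested Schwann cell genes was 0.10, and 14.7% of all tested genes were called. The part of nerve and Schwann cells in the Vsnl1 signal was not tested.

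**Figure D1:**
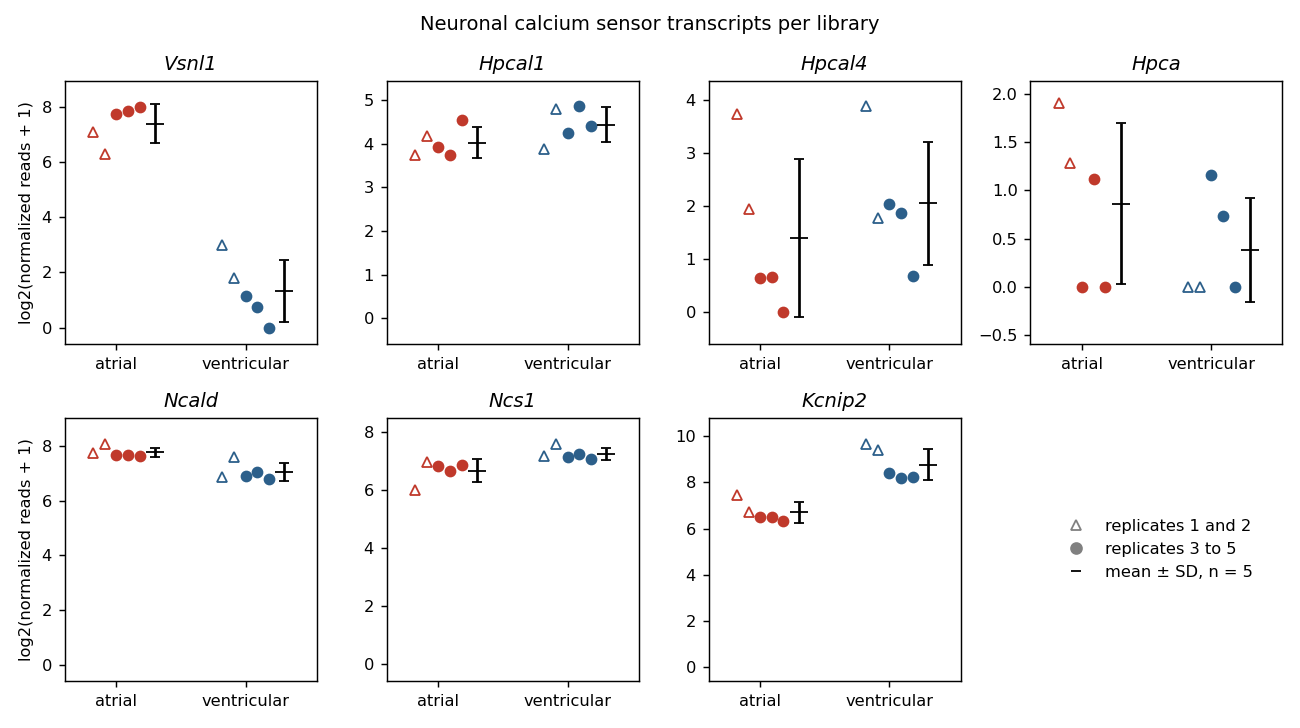
Level of the 6 members and of Kcnip2 in each library, as log2(normalized reads + 1), with aCM on the left and vCM on the right of each panel; open triangles are replicates 1 and 2, filled circles replicates 3 to 5, and the black mark is the mean ± SD of 5 libraries. The groups are apart in Vsnl1, Ncald, Ncs1 and Kcnip2 and overlap in Hpcal1, Hpcal4 and Hpca.

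The promoter region of Vsnl1 is shown because the gene is nearly silent in one chamber. RefSeq (GRCm38.p6) gives 2 start sites that lie 927 bases apart, and each window runs from 250 bases before to 50 bases after the start, on the minus strand. The windows were searched on both strands for 3 short motifs. The T-box core was spelled GGTGTG. The nuclear receptor half-site was spelled AGGTCA. The GATA site was spelled AGATAA. No matches overlapped, and matches are printed in capitals:
Vsnl1 chr12:11436529-11436828: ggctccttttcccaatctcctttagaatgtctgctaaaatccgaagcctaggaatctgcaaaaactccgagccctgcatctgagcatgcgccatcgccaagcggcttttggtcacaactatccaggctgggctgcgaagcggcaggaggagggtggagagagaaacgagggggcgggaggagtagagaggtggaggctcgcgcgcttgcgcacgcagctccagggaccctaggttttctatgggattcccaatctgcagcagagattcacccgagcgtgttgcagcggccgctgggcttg
Vsnl1 chr12:11435602-11435901: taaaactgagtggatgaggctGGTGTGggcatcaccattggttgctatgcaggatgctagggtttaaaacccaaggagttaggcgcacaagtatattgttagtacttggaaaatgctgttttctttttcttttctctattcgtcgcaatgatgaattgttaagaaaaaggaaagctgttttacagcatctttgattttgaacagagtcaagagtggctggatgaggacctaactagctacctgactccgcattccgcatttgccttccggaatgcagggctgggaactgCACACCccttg

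The first window (58.7% GC) held none of the 3 motifs. The second window (44.3% GC) held 2 T-box cores, one on each strand, and no other match. Among all 32851 RefSeq promoter windows of this length, 19.0% held the T-box core, 16.3% the nuclear receptor half-site and 11.2% the GATA site. The deposited counts do not tell which start was used. Promoter entries were found for 5 of the 6 members, all but Ncald.

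Neighbours were the nearest annotated genes that had values here and did not overlap the member, 5 on either side. Of the 10 beside Vsnl1, 3 passed the filter and 1 was called. That gene was Fam49a, a relative of the Rac1-binding protein CYRI-B, whose near end lies 825526 bases from Vsnl1. It had 1363, 1249, 1142, 1224 and 1242 normalized reads in aCM replicates 1 to 5, against 193.8, 263.2, 152.4, 158.4 and 150.7 in vCM replicates 1 to 5. All aCM libraries were far above all vCM libraries. The ratio of means was 6.77 and the log2 difference 2.78 ± 0.16 (SE; limma adjusted p = 1.62e-06). The tested genes closest to Vsnl1 did not pass. Smc6, a subunit of the chromosome-maintaining SMC5/6 complex that lies 5457 bases away, averaged 1690 ± 441 in aCM and 1799 ± 277 in vCM (-0.12 ± 0.20; 95% interval -0.55 to 0.31; limma adjusted p = 0.801). Gen1, a nuclease that resolves DNA junctions, averaged 55.7 ± 7.99 in aCM and 66.2 ± 15.6 in vCM (-0.23 ± 0.19; limma adjusted p = 0.551). Of the 60 neighbours of all 6 members 37 were tested, and Fam49a alone was called, against 14.7% of all tested genes. With the replicate number as a block, 12 of the 37 were called, 5 higher and 7 lower in aCM, against 32.3% of all tested genes. Fam49a stayed the only one called beside Vsnl1.

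Of the members that were not chosen for their level, 3 passed the filter of a mean of 10 normalized reads, and 1 of these, Ncald, was called, higher in aCM. Across all genes tested, 14.7% were called, 8.12% higher and 6.56% lower in aCM. The groups did not overlap in either direction in 14.4% of tested genes, and this was so for Ncald and Ncs1 of the 3 tested members; Vsnl1, whose groups do not overlap either, was chosen for that difference.

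Ncald encodes neurocalcin delta, a sensor first studied in brain and retina that binds clathrin and actin and acts on guanylate cyclases. It lies on the minus strand at chr15:37366175-37792570 and has 8581 bases of exon. It had 216.5, 269.2, 204.5, 205.2 and 201.4 normalized reads in aCM replicates 1 to 5, against 117.6, 195.0, 119.6, 132.3 and 109.3 in vCM replicates 1 to 5. Replicate 2 was the highest library in both chambers, and the lowest aCM library was above the highest vCM library. The means were 219.4 ± 28.4 in aCM and 134.8 ± 34.7 in vCM (SD, n = 5 each), a ratio of 1.63 and a log2 difference of 0.72 ± 0.17 (SE; limma adjusted p = 0.0140). The call was lost with libraries scaled to equal totals (0.79; limma adjusted p = 0.0557) and when both libraries of replicate 3, 4 or 5 were left out (limma adjusted p = 0.0803, 0.0677 and 0.0732), but not when any single library was. Other annotated genes overlap Ncald, of which 2 are in the tables, Gm15941 and 4930447A16Rik, with means of 2.35 and 3.64 normalized reads.

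Ncs1, neuronal calcium sensor 1 or frequenin, regulates phosphatidylinositol 4-kinase beta, inositol trisphosphate receptors and Kv4 channels. It lies on the plus strand at chr2:31245823-31295989, with 4653 bases of exon. It had 63.4, 125.2, 114.2, 101.4 and 115.8 normalized reads in aCM replicates 1 to 5, against 145.3, 192.6, 142.5, 151.7 and 132.8 in vCM replicates 1 to 5. All aCM libraries lay below all vCM libraries, the opposite order to Ncald, and aCM replicate 1 was the lowest. The means were 104.0 ± 24.2 in aCM and 153.0 ± 23.1 in vCM (SD, n = 5 each), 1.47-fold higher in vCM, and the log2 difference was -0.58 ± 0.19 (SE; 95% interval -1.003 to -0.152). This did not pass over all genes (limma adjusted p = 0.0729). With the replicate number as a block, under which 32.3% of genes were called and 16.0% lower in aCM, it did (limma adjusted p = 0.0169). It also did in replicates 3 to 5 alone (-0.36, limma adjusted p = 0.00227), where 6561 of the 12422 tested genes were called.

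Hpcal1, also called VILIP-3 and closest in sequence to hippocalcin, was low in both chambers. It lies on the plus strand at chr12:17690856-17791933 with 1695 bases of exon. It had 12.4, 17.3, 14.2, 12.4 and 22.5 normalized reads in aCM replicates 1 to 5, against 13.8, 26.8, 18.0, 28.1 and 20.4 in vCM replicates 1 to 5. The groups overlapped, and only in replicate 5 was the aCM library above its vCM counterpart. The log2 difference was -0.41 ± 0.27 (SE; 95% interval -1.01 to 0.19; limma adjusted p = 0.404), from 102 reads in aCM and 119 in vCM in all.

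Hpcal4 (VILIP-2) and Hpca (hippocalcin), which are mostly neuronal genes, stayed under the filter and were not tested. Hpcal4, on the plus strand at chr4:123183227-123194701, had 12.4, 2.88, 0.568, 0.590 and 0 normalized reads in aCM replicates 1 to 5, against 13.8, 2.44, 3.10, 2.67 and 0.618 in vCM replicates 1 to 5. Replicate 1 was the highest library in both chambers, and the groups overlapped. In all, 13 aCM reads and 15 vCM reads were found, a depth-adjusted ratio of 0.732 (95% exact interval 0.320 to 1.65, counting error only). The ratio was 1.08 (0.347 to 3.98) in replicates 1 and 2, from 11 aCM and 5 vCM reads, and 0.189 (0.0201 to 0.886) in replicates 3 to 5, from 2 aCM and 10 vCM reads. Hpca, on the minus strand at chr4:129111570-129122036, had 2.76, 1.44, 0, 1.18 and 0 normalized reads in aCM replicates 1 to 5, against 0, 0, 1.24, 0.668 and 0 in vCM replicates 1 to 5, from 5 and 3 reads in all. The depth-adjusted Hpca ratio was 1.41, with a 95% exact interval of 0.274 to 9.06 from counting error only. A chamber difference could therefore not be told at this depth. The body of Hpca overlaps Tmem54 on the other strand, which had a mean of 0.751 normalized reads.

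Per kilobase of exon, counted over all annotated transcripts, the family had a different leading member in each chamber. This length was 8581 bases for Ncald, against 3733 in the transcript used for its coding sequence. For Ncs1 it was 4653 by both counts. A shorter length would raise Ncald, so its place in vCM and the shares and sums that follow depend on this choice. In aCM, Vsnl1 led with 92.2 ± 37.3 normalized reads per kb, followed by Ncald (25.6 ± 3.31), Ncs1 (22.4 ± 5.20), Hpcal1 (9.30 ± 2.52), Hpcal4 (0.616 ± 0.977) and Hpca (0.368 ± 0.394). Ncald and Ncs1 overlapped in that order, with Ncald ahead in 3 of 5 libraries, and so did Hpcal4 and Hpca. In vCM, Ncs1 led with 32.9 ± 4.97 normalized reads per kb, followed by Ncald (15.7 ± 4.04), Hpcal1 (12.6 ± 3.54), Vsnl1 (1.15 ± 1.41), Hpcal4 (0.849 ± 0.990) and Hpca (0.131 ± 0.192). There Ncald and Hpcal1 overlapped, with Ncald ahead in 4 of 5 libraries, and Vsnl1, Hpcal4 and Hpca overlapped one another in turn.

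The summed level of the 6 members was 150.4 ± 35.3 normalized reads per kb in aCM and 63.4 ± 11.2 in vCM (SD, n = 5 each). Vsnl1 made up 35.9% to 68.7% of the sum in aCM libraries and 0% to 5.97% in vCM libraries. On these lengths the sums without Vsnl1 were 58.2 ± 7.74 in aCM and 62.2 ± 11.1 in vCM, a difference smaller than the spread between libraries. They too depend on the length taken for Ncald.

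**Figure D2:**
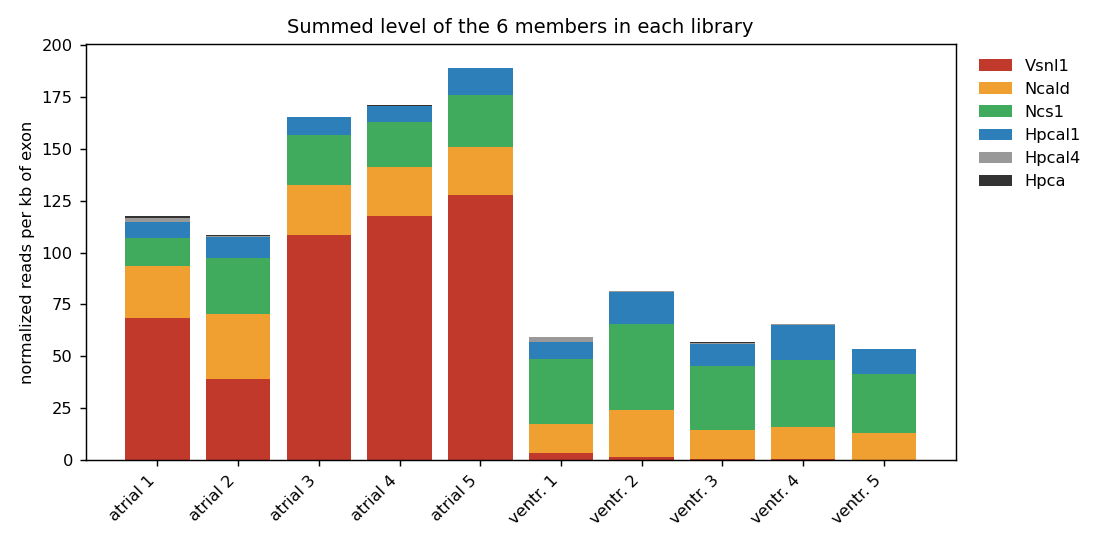
Stacked levels of the 6 members in each library, in normalized reads per kb of exon, with the 5 aCM libraries on the left and the 5 vCM libraries on the right. The aCM bars reach 109 to 189 and the vCM bars 53.4 to 81.6, and the Vsnl1 segment fills 35.9% to 68.7% of each aCM bar and at most 5.97% of a vCM bar.

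Libraries of the same replicate number were set side by side, though the labels do not state that they are paired. The directions held as follows. The aCM library was the higher of the pair in 5 of 5 pairs for Vsnl1 and Ncald, in 1 of 5 for Hpcal1 and in 0 of 5 for Ncs1. The log2 difference of Ncald was 0.67 within replicates 1 and 2 and 0.76 within replicates 3 to 5, and limma's interaction of chamber and library set was 0.09 (adjusted p = 0.902). For Ncs1 it was -0.90 within the first set and -0.36 within the second (interaction 0.54 ± 0.34, SE; limma adjusted p = 0.428), and for Hpcal1 they were -0.38 and -0.43 (interaction limma adjusted p = 0.969). Over all tested genes, 5.21% were called in this interaction.

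**Figure D3:**
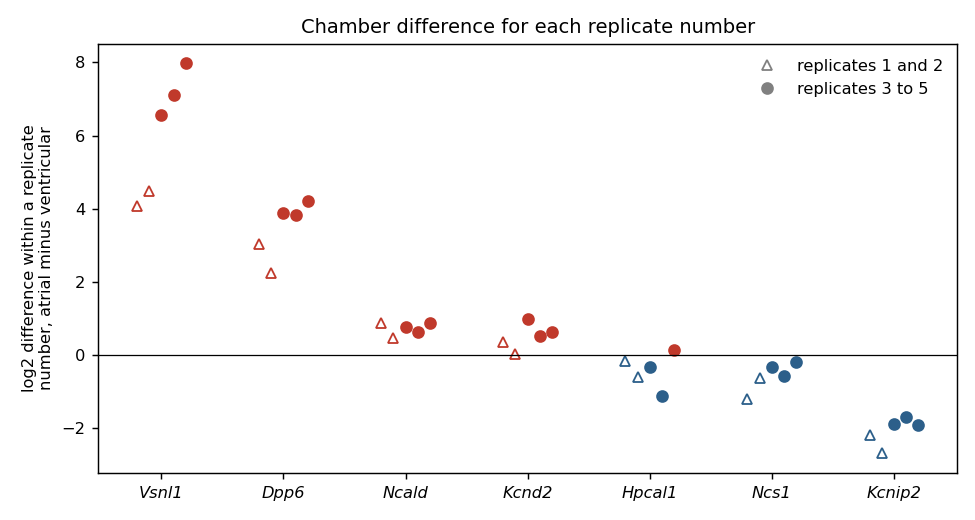
Log2 difference between the aCM and the vCM library of the same replicate number, for 4 members, Kcnip2 and the Kv4 genes Dpp6 and Kcnd2; open triangles are replicates 1 and 2, filled circles replicates 3 to 5, and the line marks no difference. All 5 points lie above 0 for Vsnl1, Dpp6, Ncald and Kcnd2 and below 0 for Ncs1 and Kcnip2, and Vsnl1 runs from 4.09 to 7.97.

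Among the 7 related sensors, a list made up of recoverin, the guanylate cyclase activators and the Kv4 channel-interacting proteins, Kcnip2 alone passed the filter, and it was lower in aCM. It had 175.2, 103.6, 90.9, 89.6 and 79.2 normalized reads in aCM replicates 1 to 5, against 799.2, 670.3, 339.6, 290.0 and 302.1 in vCM replicates 1 to 5. The groups were well apart, and replicate 1 was the highest library in each. Kcnip2 was 4.46-fold higher in vCM (log2 difference -2.07 ± 0.33, SE; limma adjusted p = 0.00164), so it ran opposite to Vsnl1. Per kb it reached 31.0 ± 11.1 in aCM and 138.2 ± 68.3 in vCM, above the 32.9 ± 4.97 of Ncs1, the leading member in vCM on the lengths used. The 6 others of that list, Rcvrn, Guca1a, Guca1b, Kcnip1, Kcnip3 and Kcnip4, averaged between 0.276 and 7.62 normalized reads in aCM and between 0.124 and 6.28 in vCM.

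Kcnip2 and Ncs1 act on Kv4 channels, so the subunits of these channels were read alongside. Of 5 such genes 3 passed the filter. Their median log2 difference was that of the uncalled Kcnd3, 0.85 against -0.01 over all tested genes, and does not describe the 3 together. Dpp6, at a mean of 5.36 in vCM, passed the filter only through aCM. Of the 3, 1 was called, against 14.7% of all tested genes (32.3% with the replicate block). Dpp6, a dipeptidyl peptidase-like subunit that speeds Kv4 gating, had 120.0, 50.4, 32.4, 32.4 and 29.0 normalized reads in aCM replicates 1 to 5, against 13.8, 9.75, 1.24, 1.34 and 0.618 in vCM replicates 1 to 5. Replicate 1 was the highest library in each chamber and the groups did not overlap. The log2 difference was 3.45 ± 0.68 (SE; limma adjusted p = 0.00602). The pore subunit Kcnd2 (Kv4.2) was above its vCM counterpart in 5 of 5 pairs, at 99.9 ± 16.8 in aCM and 69.7 ± 9.77 in vCM, but did not pass (0.51 ± 0.16; limma adjusted p = 0.0600). It passed with the replicate block (limma adjusted p = 0.0317), with library set as a covariate (limma, 0.0193) and in replicates 3 to 5 alone (limma, 1.5e-05). In those fits 4017, 3955 and 6561 of the 12422 tested genes were called, against 1824 in the main fit. Kcnd2 also passed with edgeR (adjusted p = 0.0440) and DESeq2 (adjusted p = 0.0144). Within replicates 1 and 2 alone the difference was 0.19 (limma adjusted p = 0.833). On leaving out libraries, limma adjusted p ran from 0.0356 to 0.309, and it passed without aCM replicate 1 (0.0467) or aCM replicate 2 (0.0440). The pore subunit Kcnd3 (Kv4.3) averaged 23.6 ± 21.2 in aCM and 10.8 ± 4.83 in vCM (limma adjusted p = 0.338). Its value in aCM replicate 1 was 60.7, against 10.3 to 21.6 in the other aCM libraries. The log2 difference of Kcnd3 was 0.18 in replicates 3 to 5 alone. Kcnd1 and Dpp10 averaged under 10 normalized reads in both chambers.

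Of 18 symbols listed as binding partners or targets of the members, 13 were tested. The median log2 difference was 0.03, and 1 gene was called, against 14.7% of all tested genes (32.3% with the replicate block). Grk2, the receptor kinase whose action on dopamine receptors Ncs1 is described to oppose, averaged 155.0 ± 8.71 in aCM and 207.0 ± 21.02 in vCM (-0.41 ± 0.11, SE; limma adjusted p = 0.0273). The call was lost without aCM replicate 3 or 5 or vCM replicate 2, 3 or 4 (limma adjusted p up to 0.0804) and when libraries were scaled to equal totals (0.206). With the replicate block 3 partners were called, Grk2, the inositol trisphosphate receptor Itpr2 (-1.20; limma adjusted p = 0.000193) and the natriuretic peptide receptor Npr2 (0.48; 0.0203), the last 2 named after their values were seen, and with no filter on low values 0 were. Pi4kb, the lipid kinase that Ncs1 activates, averaged 165.5 ± 23.7 in aCM and 170.3 ± 32.6 in vCM (-0.03 ± 0.16; limma adjusted p = 0.947).

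Of 32 other EF-hand genes 21 were tested, with a median log2 difference of 0.15. Of these 6 were called, 4 higher and 2 lower in aCM, against 14.7% of all tested genes (32.3% with the replicate block). Efhd2, a cytoskeletal EF-hand protein also known as swiprosin, averaged 407.5 ± 37.6 in aCM and 157.1 ± 13.6 in vCM (1.37 ± 0.11, SE; limma adjusted p = 1.42e-05). Rcn1, a calcium-binding protein of the endoplasmic reticulum, averaged 1225 ± 284 in aCM and 640.4 ± 85.5 in vCM (0.92 ± 0.16; limma adjusted p = 0.00324). Calm3, one of the 3 calmodulin genes, averaged 1369 ± 203 in aCM and 2145 ± 319 in vCM (-0.65 ± 0.14; limma adjusted p = 0.00815). The calls of Efhd2, Rcn1 and Calm3 held when any single library was left out. Calm3 lost its call with equal totals (limma adjusted p = 0.134), in replicates 1 and 2 alone (0.0942) and without replicate 5 of both chambers (0.0512). Sdf4, a Golgi calcium-binding protein, Pvalb, the calcium buffer parvalbumin, and Tesc, a regulator of sodium-proton exchange, had limma adjusted p = 0.0308, 0.0346 and 0.0287. Their calls were lost on leaving out 7, 6 and 5 of the 10 single libraries. With the replicate block 9 EF-hand genes were called, the added ones being S100a1 (-0.79; limma adjusted p = 0.00244), Rcn2 (0.44; 0.00382) and Calm2 (0.24; 0.0313), named after their values were seen.

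None of the 4 genes that prepare the glycine site and attach the myristoyl group was called by limma, edgeR or DESeq2, and 0 had an unadjusted limma p under 0.05. With 14.7% of all tested genes called by limma, a count of 0 among 4 says little about these genes. Nmt1, the main N-myristoyltransferase, averaged 517.3 ± 48.5 in aCM and 567.5 ± 34.8 in vCM (-0.14 ± 0.10; limma adjusted p = 0.469), and Nmt2 averaged 232.9 ± 24.8 in aCM and 211.0 ± 12.9 in vCM (0.14 ± 0.11; limma adjusted p = 0.499). The methionine aminopeptidases Metap1 and Metap2 had log2 differences of -0.16 ± 0.11 and -0.21 ± 0.20.

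**Figure D4:**
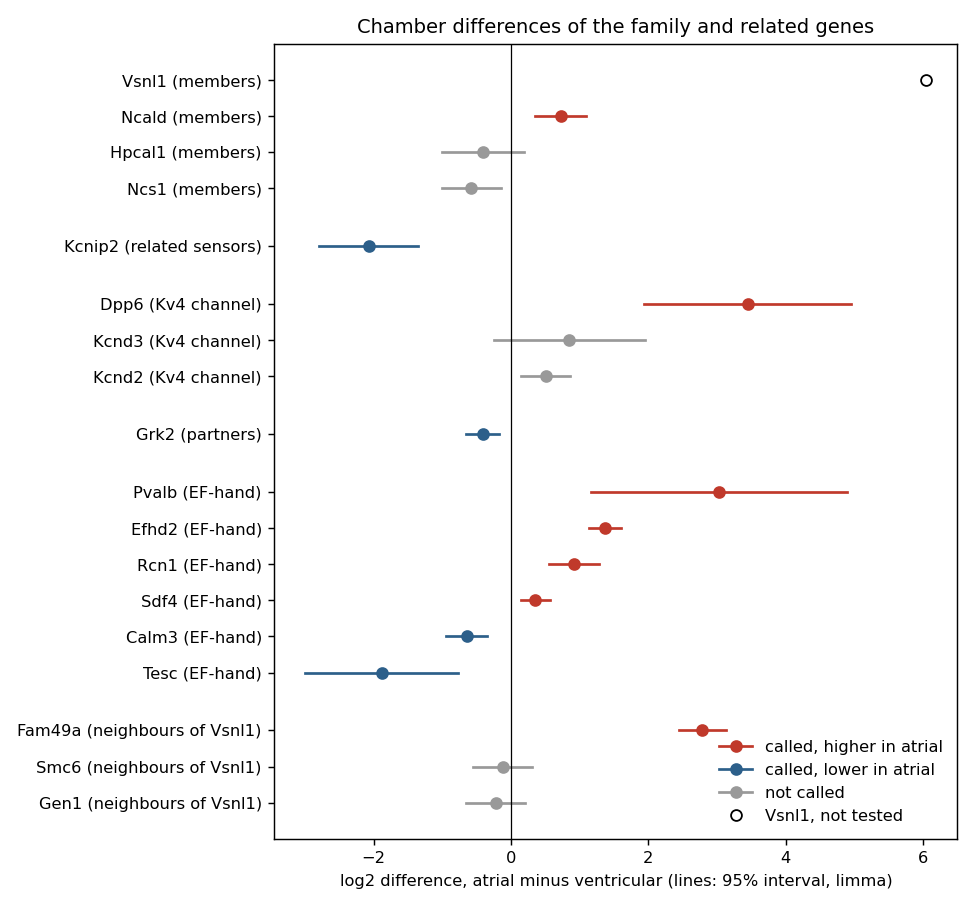
Log2 differences, aCM minus vCM, of the tested members, related sensors, Kv4 subunits, the called partner and EF-hand genes, and the tested neighbours of Vsnl1; lines are limma's 95% intervals, red marks genes called higher in aCM, blue genes called lower and gray genes not called, and Vsnl1 is an open point with no interval because it was not tested. Vsnl1 is farthest to the right at 6.05, Ncald sits at 0.72, and Kcnip2 is farthest to the left at -2.07.

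By Pearson correlation of log2 values over the 10 libraries, the genes most like Vsnl1 among genes that reach a mean of 100 normalized reads in either chamber were Klhl3 (r = 0.994), Mr1 (0.989), Tmem163 (0.986), Bmp10 (0.986) and Tead2 (0.986). These libraries share chamber and library set, so r is only a description of pattern. With the group means removed, r with Vsnl1 was 0.926 for Klhl3 and between 0.795 and 0.873 for the others. The likeness does not extend to the size of the difference. Tmem163, a zinc transporter, and Bmp10, an atrial growth factor, had log2 differences of 5.94 and 6.26, close to the 6.05 of Vsnl1, whereas Klhl3, a ubiquitin ligase adaptor, had 0.99.

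For Ncald the most similar genes were Dusp6 (r = 0.975), Trim11 (0.972), Jam3 (0.969), Rrad (0.968) and Igfbp3 (0.967). Each of these was highest among vCM libraries in replicate 2, as Ncald was, and they too were higher in aCM on average, with a log2 difference of 0.81 for Jam3, a junctional adhesion molecule, and 0.97 for Dusp6, a phosphatase of ERK kinases.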

How the data were processed

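Per the labels' protocols, total RNA was extracted with Trizol and libraries were made with the ScriptSeq v2 kit. Trimmomatic, HISAT2 and featureCounts were used on GRCm38 (mm10), per the submitters' processing notes; the sources used here give no version, annotation or strand setting, so reads of overlapping genes cannot be told apart. Each deposited value is a signal, the reads of a gene after the authors' DESeq2 scaling by library, per the file headers. Dividing by each library's smallest step gave whole reads (tolerance 0.01) for 100% of values, and these gave depth and counting intervals.

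The 12422 genes whose mean reached 10 normalized reads were tested with limma 3.58.1 in R 4.3.3 (trend, robust, two-sided) on log2(value + 1), which understates differences of low genes, with Benjamini-Hochberg adjustment over all of them. edgeR 4.0.16 (quasi-likelihood) called 1995 genes and DESeq2 1.42.0 was also run on the recovered reads. Intervals of read ratios are exact binomial. Coding sequences were aligned with Biopython 1.88. Means are ± SD and differences ± SE. The test was run on simulated counts with the same dispersion for all genes and no library sets. That run does not cover the division between the libraries here.

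Libraries with the same replicate number deviated together from their group means (correlations 0.582, 0.637, 0.623, 0.556 and 0.631, all over 0.1), and the number was used as a block. Both chambers share the division into library sets, which by itself can give such correlations. They therefore cannot show that libraries of the same number were paired, and a pair here means only a shared number. Blocked values stand beside the members, neighbours and pathway lists where they change calls. Replicate libraries differed by more than sampling noise.

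Named were all members, related sensors, Kv4 and myristoylation genes, called partner and EF-hand genes, the 5 genes most like Vsnl1 and Ncald, the neighbours of Vsnl1 and marker genes; Pi4kb was named after its values were seen, as were genes called with the block only. Members and lists were chosen with earlier results of these data known. Of the other marker lists, Schwann cell markers had 1 of 3 tested genes called, higher in aCM, smooth muscle and pericyte markers 2 of 7, lower, immune markers 1 of 3, higher, cardiomyocyte markers 1 of 8, lower, endothelial markers 3 of 7, higher, fibroblast markers 2 of 7, lower, and epicardial markers 6 of 7, higher. With the block, cardiomyocyte markers had 4 called lower, endothelial 4 higher, fibroblast 3 lower, and smooth muscle and pericyte 3 lower and 1 higher. Over all tested genes 14.7% were called, and 32.3% with the block. Protein sequences were not used here.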

Additional observations from a re-analysis of the deposited data

Results flagged for a closer look

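Among 98 groups of 5 libraries (49 named genes), 26 had a library that stood apart from the other 4 by more than 0.71 of the group's range, Dixon's 95% limit. For independent, roughly normal groups chance gives about 1 in 20, but these groups are not such a sample, because libraries share depth and the genes most like Ncald were picked for their likeness to it. Of the 26, 16 were in replicate 1, and all 26 were the highest library of their group. In 6 of them the other 4 libraries were at 0. Replicate 1 libraries also had reads for the most genes in each chamber, and the part of this in the flags was not tested. Values are normalized reads.

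Of the members, Hpcal4 stood apart at 12.4 in aCM replicate 1 and at 13.8 in vCM replicate 1, and Ncald at 269.2 in aCM replicate 2 and at 195.0 in vCM replicate 2. Among related sensors, Rcvrn had 2.76 in aCM replicate 1 and 6.92 in vCM replicate 1, Guca1a 1.38 in aCM replicate 1 and 3.46 in vCM replicate 1, and Guca1b 20.8 in vCM replicate 1. Kcnip1 had 6.90 in aCM replicate 1 and 0.618 in vCM replicate 5, Kcnip2 had 175.2 in aCM replicate 1, and Kcnip4 had 22.1 there. Of the Kv4 genes, Kcnd3 had 60.7, Dpp6 120.0 and Dpp10 6.90, all in aCM replicate 1.

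The genes most like Ncald stood apart in vCM replicate 2, with Dusp6 at 197.4, Igfbp3 at 219.4, Jam3 at 207.2, Rrad at 1029 and Trim11 at 273.0. Of the neighbours of Vsnl1, Msgn1 had 1.38 in aCM replicate 1 and 4.88 in vCM replicate 2, Mir7675 0.618 in vCM replicate 5, and 4930511A02Rik 8.28 in aCM replicate 1 and 3.46 in vCM replicate 1. Values that rest on 1 to 3 reads are loosely known, because counting error is large at such counts.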

How the results depend on the processing

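Hpcal1 kept its direction and stayed uncalled in all 27 alternatives (-0.55 to -0.23). The genes called numbered 3955 with library set as a covariate, 4017 with the replicate block, 638 in replicates 1 and 2 alone, 6561 in replicates 3 to 5 alone, and 942 to 2143 on leaving out libraries (942, 1023 and 973 without replicate 3, 4 or 5 of both chambers), against 1824. Vsnl1's log2 difference of 6.05 was 4.63 and 3.88 with pseudocounts of 5 and 10, 7.20 with DESeq2, 7.17 with edgeR, 4.29 in replicates 1 and 2 alone and 7.22 in replicates 3 to 5 alone, and 5.57 to 6.54 on leaving out libraries; a larger pseudocount shrinks a difference that rests on values near 0. Ncald lost its call with equal totals (0.79) and in replicates 1 and 2 alone (0.67, limma adjusted p = 0.286), and without replicate 3, 4 or 5 of both chambers (leave-out range 0.65 to 0.86; limma adjusted p = 0.00162 to 0.0803). Ncs1 gained a call with DESeq2 (-0.53, adjusted p = 0.0289), library set as a covariate (-0.58, limma adjusted p = 0.0304), the replicate block (-0.58) and replicates 3 to 5 alone (-0.36), but in none of the leave-out fits (limma adjusted p = 0.0584 to 0.222). The untested Hpca difference of 0.48 was 1.60 in replicates 1 and 2 alone and -0.26 in replicates 3 to 5 alone, each on 0 to 3 reads a group, and that of Hpcal4 was 0.01 in replicates 1 and 2 alone and -1.10 in replicates 3 to 5 alone, against -0.65. Smc6, uncalled throughout, turned to 0.01504 in replicates 3 to 5 alone and to 0.004049 without aCM replicate 1 (leave-out range -0.2067 to 0.004049). The cause of these changes was not otherwise tested. For 18 other named genes, 438 of 501 recalculations kept direction and call, 52 lost a call and 9 gained one. Equal totals moved the median of all genes by 0.07 and put 65.3% of 1553 calls higher in aCM (59.8% of 1753 with TMM), against 55.3%. Among members, the replicate block changed the call of Ncs1 alone. Depth limits Hpca, Hpcal4 and the ventricular level of Vsnl1.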
